A study of Homo sapiens with 9 samples.

Results

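The transcriptomes of MDA-MB-468 cells carrying either of the hairpins shLMO2-2 and shLMO2-1 were compared directly, 3 libraries against 3, across all measured genes. These 6 libraries were all the hairpin libraries among the 9 of the study, and they were chosen by the plasmid named in their labels, not by any measured value. MDA-MB-468 is an established human breast adenocarcinoma line. The control group is 3 libraries of the same line carrying the empty lentiviral vector pSicoR, which holds no hairpin, and it served here only to show which hairpin departed from it. The hairpin groups carried shLMO2-1 or shLMO2-2, so a lentiviral plasmid was common to all 3 groups. Per the labels, RNA came from 200000 harvested cells per library and was selected for poly(A) tails. No dose, time after infection or selection step is given in the sources used here, and nothing in the labels says that the libraries of a group came from separate cultures, so p-values measure only the spread between these libraries.

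A short hairpin RNA is trimmed by the cell to a small RNA, which guides the silencing complex to transcripts it pairs with. Such a small RNA can also lower transcripts that match only its seed, which is why a second hairpin of different sequence is commonly used beside the first. LMO2, the gene both hairpins are named for, encodes a LIM-domain cofactor that binds no DNA itself and bridges basic helix-loop-helix factors such as TCF3 and GATA factors through LDB1.

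LMO2 itself (chromosome 11, 33858576 to 33892289, minus strand, GENCODE 29, GRCh38; overlapping AC132216.1) was nearly unmeasured in every library. It was counted 4, 35 and 19 times in control replicates 1 to 3, 2, 1 and 6 in shLMO2-1, and 1, 4 and 3 in shLMO2-2. The counts of both hairpins overlapped, and control replicate 1 lay within their range. Between the hairpins LMO2 differed by −0.57 on the log2 scale (SE 1.05, adjusted p = 0.918, edgeR's quasi-likelihood test with Benjamini-Hochberg adjustment), and the sign turned to 0.45 (adjusted p = 0.924) without shLMO2-1 replicate 3. A two-sided exact permutation test of log2 CPM gave p = 0.8, and no split of 3 against 3 can go under 0.1. CPM is the count scaled to a common library total, in this test without the TMM factors that every other CPM uses. Between the hairpins, then, LMO2 was not separable at this depth. With an SE of 1.05, neither the sign nor the size of a difference is settled. Against control LMO2 was called lower in shLMO2-2 (−3.02, adjusted p = 0.0441) and not in shLMO2-1 (−2.44, adjusted p = 0.0907). That call did not hold without control replicate 2 or 3, shLMO2-1 replicate 1 or 2, or any shLMO2-2 library, and with limma-voom and thinning (adjusted p from 0.00296 to 0.138 over the alternatives), and shLMO2-1 ran from 0.0253 to 0.27.

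The libraries held 16628712 to 19385187 counts in control, 15494486 to 17638007 in shLMO2-1 and 21726879 to 23069456 in shLMO2-2, so depth moved with the hairpin. After every library was thinned at random to the smallest total, 106 genes were called between the hairpins and 98 of them were among the 113 called at full depth. On principal components of log2 CPM, the third component (13.1% of the variance) separated the hairpins, with shLMO2-1 at 8.6 to 27.8 and shLMO2-2 between −16.1 and −17.3. The first and second components (26.8% and 18.3%) did not, and ran with replicate number in both hairpins. From replicate 1 to 3 the first was at −0.1, 7 and 20.8 with shLMO2-1 and at 9.3, 15.4 and 28.9 with shLMO2-2. The second was at 26.6, 13.3 and −7.6 with shLMO2-1 and at 17.1, 1.3 and −15.9 with shLMO2-2. The labelled cell type was checked against its markers, and EPCAM, CDH1, EGFR and keratins 5, 8, 18 and 19 lay between 282 and 7937.1 CPM in every hairpin library. Of 21 markers of other cell types, 7 were at 0 in all libraries, CD3E, HBB and COL3A1 among them, and 13 stayed under 1 CPM. Their summed level was 31.6 to 37 CPM with shLMO2-1, 26.9 to 32.1 in shLMO2-2 and 18.7 to 30.8 in control, with COL1A1 and KDR giving most of it (up to 17.1 and 12.8 CPM), and its part in the results was not tested.

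Of 14709 genes tested, 113 (0.768%) differed between the hairpins, with 51 higher in shLMO2-2 (0.347%) and 62 lower (0.422%). The genes led by size were SMIM11A, XAGE2 and MZT1 on the higher side, and THBS1, LINC01235 and P3H2 on the lower side among genes of at least 5 CPM. A difference of at least 2-fold was seen in 17 genes (0.116%), 3 higher and 14 lower. The median size of a called difference was 0.603 on the log2 scale, and 35 of the 113 were under 0.5. Across all genes, 2661 (18.1%) had 3 libraries of each hairpin that did not overlap, and 1552 were under 0.05 before adjustment. A gene was called at an adjusted p under 0.05 by edgeR's quasi-likelihood test with Benjamini-Hochberg adjustment.

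The fit shares 1 estimate of spread over 9 libraries, and the number called moved when single libraries were left out. It was 239 without control replicate 1, which lay apart from the other controls on the first component (at −42.6), and 75 without control replicate 3. Without shLMO2-1 replicates 1, 2 and 3 it was 54, 38 and 72, and without shLMO2-2 replicates 1, 2 and 3 it was 62, 40 and 49. All 113 called genes had hairpin libraries that did not overlap, so leaving out 1 library could hardly turn a sign, and none turned. Whichever of the 9 libraries was left out, 36 genes, 16 higher and 20 lower, kept their call.

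**Figure D1:**
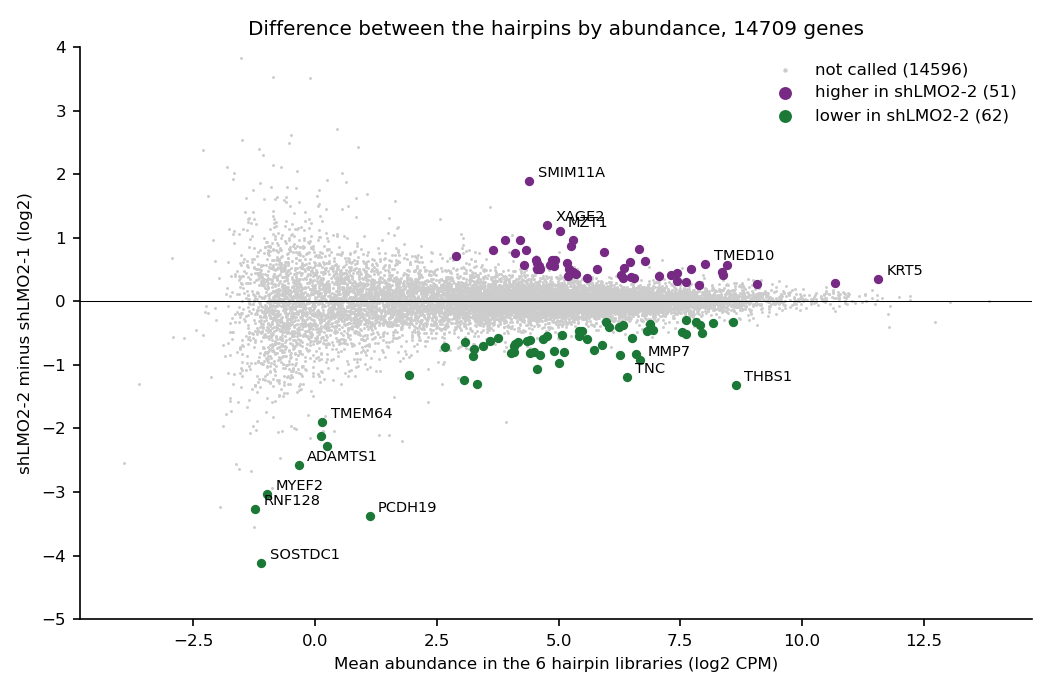
Each point is 1 of 14709 genes, with mean abundance in the 6 hairpin libraries on the x axis (log2 CPM) and the log2 difference shLMO2-2 minus shLMO2-1 on the y axis. The 51 genes called higher in shLMO2-2 and the 62 called lower are coloured, and 14 of the 17 called genes past 2-fold lie on the lower side.

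The control libraries show which hairpin left the level of the empty vector. The contrasts of each hairpin with control share the control libraries, and they called 1239 genes in shLMO2-1 (8.42%; 3.88% lower and 4.54% higher) and 1320 in shLMO2-2 (8.97%; 4.04% lower and 4.94% higher). Of the 113 genes that differed between the hairpins, 50 were called against control in shLMO2-1 only, 30 of them lower than control and 20 higher. Another 28 were called in shLMO2-2 only, 19 lower and 9 higher, and 20 were called the same way in both hairpins to unequal extent. The remaining genes were 5 called in opposite directions and 10 called against control in neither hairpin. The control mean lay between the means of both hairpins in 55 genes. It was nearer to shLMO2-2 in 67 and nearer to shLMO2-1 in 46, and among the 51 genes higher in shLMO2-2 it was nearer to shLMO2-2 in 39. Being called against control in 1 hairpin only is a count of thresholds passed. The direct test between the hairpins is the one that separates them.

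**Figure D2:**
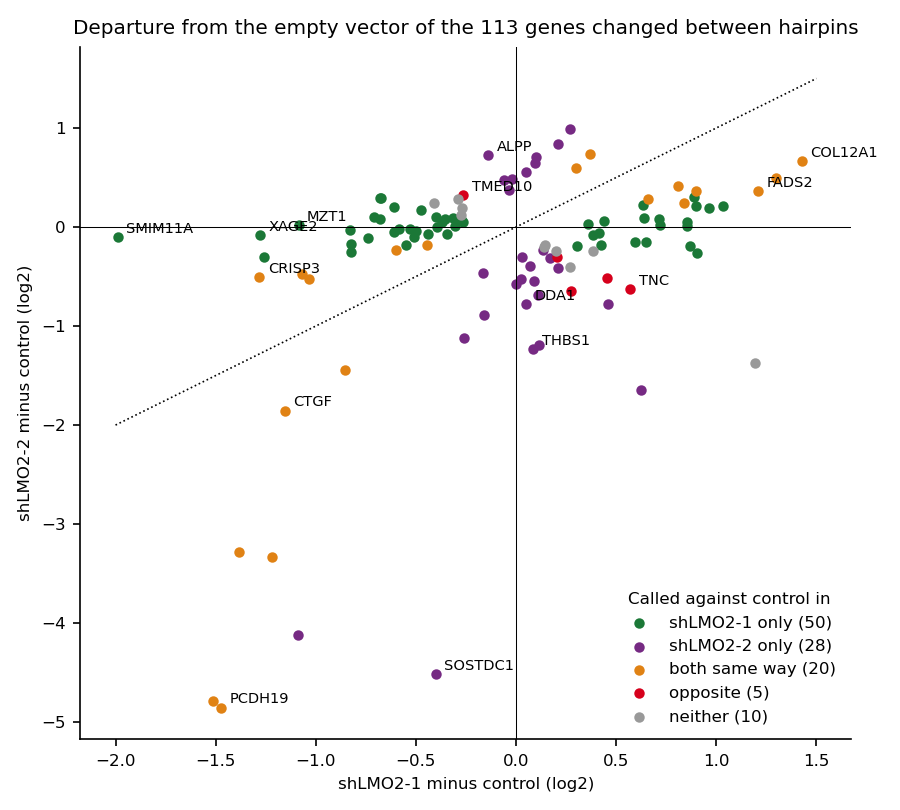
Each of the 113 genes that differed between the hairpins is placed by its log2 difference from control in shLMO2-1 (x axis) and in shLMO2-2 (y axis), coloured by the hairpin in which it was called against control, and the dotted line marks equal departure. The 50 genes called in shLMO2-1 only lie near the horizontal axis and the 28 called in shLMO2-2 only lie near the vertical axis, apart from a few low-abundance genes far down.

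Among the 12 genes named as highest in shLMO2-2 relative to shLMO2-1, 10 were called lower than control in shLMO2-1 and not called in shLMO2-2. XAGE2, an X-linked gene of the cancer-testis antigen family, stood at 40.5, 41.4 and 37.9 CPM in control replicates 1 to 3, at 14.6, 16.5 and 18.4 CPM with shLMO2-1, and at 36.4, 37.9 and 38.7 CPM with shLMO2-2. All 3 shLMO2-1 libraries were low, and the shLMO2-2 libraries overlapped the lower end of the controls. It was 2.29-fold higher in shLMO2-2 (log2 1.19, SE 0.09, adjusted p = 0.000194), with −1.28 against control in shLMO2-1 (adjusted p = 4.53e-05) and −0.08 in shLMO2-2 (adjusted p = 0.608).

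MZT1, a small protein that binds the gamma-tubulin ring complex and helps it nucleate spindle microtubules, was at 47.8, 44.1 and 39.0 CPM in control, 21.4, 20.7 and 19.6 CPM with shLMO2-1, and 44.1, 41.7 and 47.0 CPM with shLMO2-2. The shLMO2-1 libraries were again the low ones, and those of shLMO2-2 overlapped the controls. The difference was 2.15-fold (log2 1.11, SE 0.09, adjusted p = 0.000238). Of the 23 measured genes of the gamma-tubulin ring complex list, MZT1 alone was called between the hairpins, and the list's median difference was 0.02 against 0.00 for all genes.

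PRKACB, a catalytic subunit of protein kinase A, was at 110, 111 and 112 CPM in control, at 78.1, 68.9 and 71.2 CPM with shLMO2-1, and at 126, 124 and 134 CPM with shLMO2-2. No hairpin library lay within the range of the controls, with shLMO2-1 below and shLMO2-2 above. The direct difference was 0.82 (SE 0.07, adjusted p = 0.000215), and the rise over control in shLMO2-2 alone (0.21, adjusted p = 0.0766) did not pass.

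BTG3, a member of the antiproliferative BTG/TOB family, measured 71.4, 61.0 and 60.5 CPM in control, 29, 28.6 and 22.8 CPM with shLMO2-1, and 52.5, 52.1 and 51.9 CPM with shLMO2-2. Its 3 groups did not overlap, with shLMO2-1 far under control and shLMO2-2 just under it. BTG3 was 1.94-fold higher in shLMO2-2 (log2 0.96, SE 0.10, adjusted p = 0.00138), and it overlaps BTG3-AS1. CRISP3, a cysteine-rich secreted protein, lay at 108, 112 and 108 CPM in control, 45.2, 44.1 and 45.5 CPM with shLMO2-1, and 75.7, 77.1 and 78.2 CPM with shLMO2-2. For CRISP3 the 3 groups formed 3 separate steps, so that it fell in both hairpins (−1.28, adjusted p = 2.4e-06, and −0.50, adjusted p = 0.00056) and fell further in shLMO2-1 (difference 0.78, SE 0.06, adjusted p = 0.00013).

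The further genes of this kind had group means that were low in shLMO2-1, and none was called against control in shLMO2-2. For CYP4B1 and PEX10 (19.9 and 16.2 CPM in control) all 3 shLMO2-2 libraries lay above the controls, by 0.29 for each (adjusted p = 0.116 and 0.147). The shLMO2-2 libraries of the other genes overlapped the controls. Means were 12.4 ± 1.29 and 24.4 ± 1.23 CPM (shLMO2-1 and shLMO2-2, SD, n = 3) for CYP4B1, a cytochrome P450, and 10.1 ± 0.488 and 19.7 ± 1.66 CPM for PEX10, a ubiquitin ligase of peroxisome assembly. COMMD8, a member of an endosomal sorting complex, had 14.7 ± 0.779 and 25.5 ± 0.954 CPM. STX16, a SNARE of the trans-Golgi network, had 9.20 ± 0.697 and 16.1 ± 0.577 CPM, and WDR11, a WD-repeat protein of Golgi vesicle capture, had 12.7 ± 1.76 and 21.6 ± 1.30 CPM. Their log2 differences ran from 0.76 for WDR11 to 0.97 for CYP4B1 and PEX10. STX16 shares 28.3% of its 31-base words with other genes, 25.7% with the read-through gene STX16-NPEPL1. Its call was lost without replicate 2 of either hairpin (adjusted p up to 0.0669 over the alternatives, from 4.27e-06). The call of WDR11 was lost without shLMO2-1 replicate 2, shLMO2-2 replicate 2 or shLMO2-2 replicate 3 (adjusted p from 1.61e-06 to 0.0632 over the alternatives).

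ALPP was the member of these 12 whose level moved in shLMO2-2 instead. This placental alkaline phosphatase was at 25.3, 28.8 and 35.3 CPM in control, 27.8, 26.6 and 26.8 CPM with shLMO2-1, and 51.4, 51.2 and 45.4 CPM with shLMO2-2. The shLMO2-1 libraries lay within the range of the controls and those of shLMO2-2 above it (log2 difference between the hairpins 0.86, SE 0.11, adjusted p = 0.00481). Its close relative ALPG shares 30.2% of its 31-base words, so the assignment of reads between them is uncertain.

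**Figure D3:**
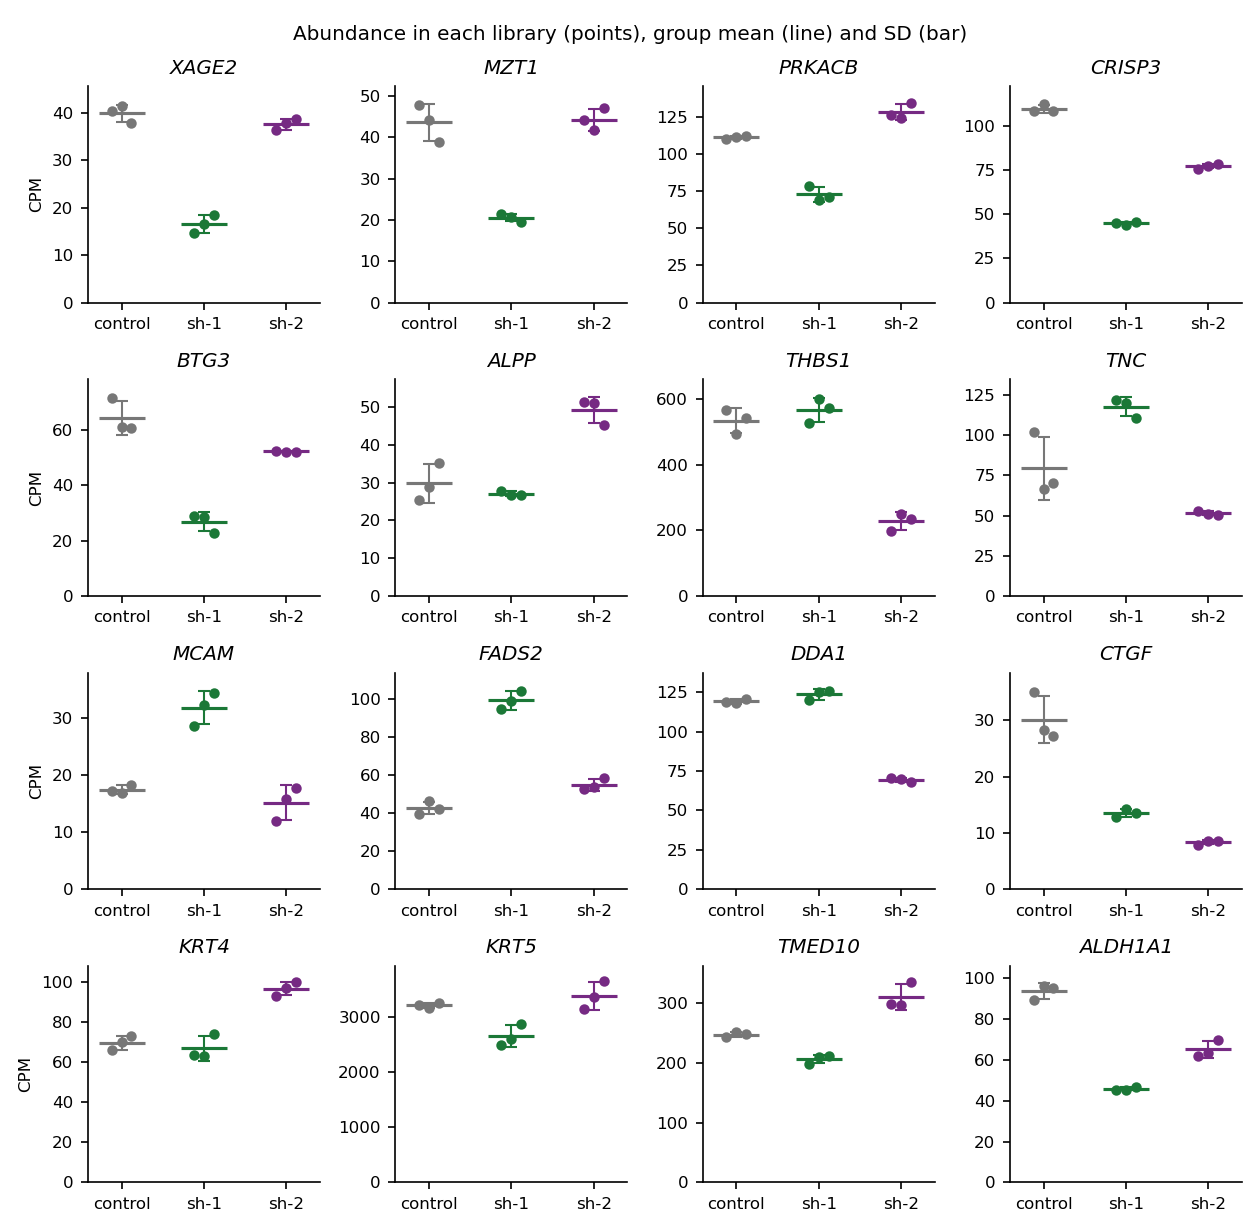
Abundance in CPM of 16 genes in each control, shLMO2-1 (sh-1) and shLMO2-2 (sh-2) library (points), with group means as lines and SDs as bars, every axis starting at 0. XAGE2, MZT1 and BTG3 are lowest in shLMO2-1, THBS1 and DDA1 are low in shLMO2-2, and TNC and TMED10 lie on opposite sides of control in the hairpins.

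On the lower side, THBS1 carried the largest difference of any gene at this abundance. THBS1 encodes thrombospondin-1, a matricellular protein known for blocking blood vessel growth and for activating latent TGF-beta. Its level was 567, 493 and 543 CPM in control replicates 1 to 3, 529, 601 and 572 CPM with shLMO2-1, and 198, 251 and 236 CPM with shLMO2-2. The shLMO2-1 libraries could not be separated from the controls, and the highest shLMO2-2 library lay far under the lowest of either group. THBS1 was 2.49-fold lower in shLMO2-2 than in shLMO2-1 (log2 −1.31, SE 0.09, adjusted p = 0.000115), with −1.23 against control in shLMO2-2 (adjusted p = 3.46e-05) and 0.09 in shLMO2-1 (adjusted p = 0.61). In bulk RNA, fewer cells with the transcript and less of it per cell cannot be told apart. The gene spans chromosome 15, 39581079 to 39599466, plus strand (GENCODE 29, GRCh38), where FSIP1 and 2 unnamed non-coding genes overlap it, and the use of strand in counting is not stated.

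THBS1 and CTGF, 2 genes commonly used as targets of the co-activator YAP and its DNA-binding partner TEAD, were both lower in shLMO2-2, and MMP7 is a standard target of AP-1. Their promoters are shown for that reason, as the 250 bases before the RefSeq start (GRCh38.p14), 5′ to 3′ on the strand of the gene. Capitals mark matches on either strand to CATTCC, the core word bound by TEAD factors, in THBS1 and CTGF, and to TGANTCA, the AP-1 word, in MMP7.
THBS1, chr15:39580829-39581078, plus strand: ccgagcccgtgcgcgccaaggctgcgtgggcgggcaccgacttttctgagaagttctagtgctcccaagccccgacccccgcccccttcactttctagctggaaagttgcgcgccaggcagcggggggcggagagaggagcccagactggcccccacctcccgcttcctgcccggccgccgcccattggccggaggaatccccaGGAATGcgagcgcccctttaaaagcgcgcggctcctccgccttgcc
CTGF, chr6:131951373-131951622, minus strand: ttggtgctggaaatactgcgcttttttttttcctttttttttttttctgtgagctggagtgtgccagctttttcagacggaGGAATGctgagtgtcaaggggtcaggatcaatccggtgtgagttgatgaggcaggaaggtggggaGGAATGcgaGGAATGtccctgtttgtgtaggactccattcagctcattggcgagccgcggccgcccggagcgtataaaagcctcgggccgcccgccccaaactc
MMP7, chr11:102530748-102530997, minus strand: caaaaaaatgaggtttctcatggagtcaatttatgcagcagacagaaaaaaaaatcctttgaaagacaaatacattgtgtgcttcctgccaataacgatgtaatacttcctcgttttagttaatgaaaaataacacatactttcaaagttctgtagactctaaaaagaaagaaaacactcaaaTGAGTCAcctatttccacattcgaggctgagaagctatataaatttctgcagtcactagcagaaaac
The THBS1 window holds 1 CATTCC match, 46 bases before the start, the CTGF window holds 3, at 169, 104 and 95 bases, and the MMP7 window holds 1 AP-1 match at 67 bases, which overlaps a CANNTG word. Of 35116 RefSeq promoters read over the same 250 bases, 11.9% hold CATTCC, 6.57% hold TGANTCA and 61.8% hold CANNTG, the E-box word of helix-loop-helix factors. AGATAA, a word of GATA factors, is in 9.17% of them and in none of the 3 shown. Promoters of other named genes were read in the same way and are not printed. CATTCC was also found for XAGE2, which was higher in shLMO2-2, and for FADS2 and COL12A1, which were called higher than control in both hairpins. For FADS2 it was found in 1 RefSeq window and not in the other. TNC, lower in shLMO2-2, had neither CATTCC nor TGANTCA, nor had FADS1, MZT1, BTG3, CRISP3, PCDH19, KRT5, KRT4 and MCAM. These matches describe letters only, and no binding was measured.

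The genes that fell in shLMO2-2 and stayed near control in shLMO2-1 included DDA1, which encodes a factor associated with the DDB1-CUL4 ubiquitin ligases. DDA1 was at 119, 118 and 121 CPM in control, 120, 125 and 126 CPM with shLMO2-1, and 70.3, 70.0 and 67.8 CPM with shLMO2-2. Its libraries were tight within each group, with only those of shLMO2-2 low (log2 −0.83, SE 0.06, adjusted p = 0.000115). LINC01235, a long non-coding RNA, was at 11.1, 12.8 and 15.6 CPM in control, 13.8, 13.1 and 15.8 CPM with shLMO2-1, and 5.83, 5.80 and 5.62 CPM with shLMO2-2. It differed by −1.31 (SE 0.14, adjusted p = 0.00154) and was the only called gene among the 452 intergenic long non-coding RNAs tested.

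P3H2, a prolyl hydroxylase of collagens, averaged 8.50 ± 0.731 CPM in control, 11.7 ± 1.66 CPM with shLMO2-1 and 4.95 ± 0.673 CPM with shLMO2-2 (SD, n = 3). The shLMO2-2 libraries lay under all controls and the shLMO2-1 libraries above them, with a difference between the hairpins of −1.24 (SE 0.15, adjusted p = 0.00346). MOB3B, of the MOB family of kinase activators, had means of 14.6 ± 2.30, 12.2 ± 1.45 and 6.68 ± 1.09 CPM in the same order. Its difference of −0.87 (SE 0.16, adjusted p = 0.0392) lost its call without any 1 of the 6 hairpin libraries or without control replicate 2 or 3 (adjusted p from 0.000154 to 0.182 over the alternatives), and the gene overlaps IFNK.

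A further group of genes was lower in shLMO2-2 with a level near control there and above it in shLMO2-1. MCAM, the cell adhesion molecule CD146, was at 17.2, 16.8 and 18.3 CPM in control, 28.7, 32.4 and 34.4 CPM with shLMO2-1, and 11.9, 15.9 and 17.8 CPM with shLMO2-2. The shLMO2-2 libraries overlapped the controls and all 3 shLMO2-1 libraries were high (difference −1.07, SE 0.14, adjusted p = 0.00452). AK5, an adenylate kinase, was at 18.7, 17.6 and 16.1 CPM in control, 30.2, 32.8 and 31.8 CPM with shLMO2-1, and 17.0, 18.1 and 17.9 CPM with shLMO2-2. IL7R, the interleukin 7 receptor chain, averaged 13.3 ± 0.609 CPM in control, 27.2 ± 3.54 CPM with shLMO2-1 and 15.4 ± 1.08 CPM with shLMO2-2 (SD, n = 3). AK5 differed by −0.84 (SE 0.09, adjusted p = 0.00138) and IL7R by −0.82 (SE 0.11, adjusted p = 0.00552), and neither was called against control in shLMO2-2.

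Both fatty acid desaturases that act in converting essential fatty acids to long-chain polyunsaturated ones rose in both hairpins and rose further in shLMO2-1. FADS2 was at 39.6, 46.1 and 42.3 CPM in control, 94.3, 98.7 and 104 CPM with shLMO2-1, and 52.4, 53.8 and 58.4 CPM with shLMO2-2, 3 steps with no overlap. The difference between the hairpins was −0.85 (SE 0.08, adjusted p = 0.00039). FADS1, its neighbour on chromosome 11, had means of 21.3 ± 1.40, 39.8 ± 0.787 and 27.4 ± 3.30 CPM and a difference of −0.54 (SE 0.10, adjusted p = 0.0334). The annotated spans of both genes overlap on opposite strands, so their reads are not fully separable where strand is unknown. FADS1 lost its call without control replicate 3, any shLMO2-1 library or shLMO2-2 replicate 1 or 2, and after thinning (adjusted p from 0.000245 to 0.167 over the alternatives). Against control in shLMO2-2, where both desaturases rose by 0.36, FADS2 lost its call without control replicate 3 or shLMO2-2 replicate 2 or 3 (0.00146 to 0.0794) and FADS1 in 11 of 19 alternatives, namely without 8 of the 9 single libraries, with total counts, with limma-voom and after thinning (0.0185 to 0.173). Of 30 measured genes of cholesterol and fatty acid synthesis these were the only 2 called, and the median difference of the list was 0.02.

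In 5 genes the hairpins were called on opposite sides of control. TNC, the matrix protein tenascin-C, was at 102, 66.4 and 70.2 CPM in control, 122, 120 and 111 CPM with shLMO2-1, and 53.0, 50.9 and 50.5 CPM with shLMO2-2. Control replicate 1 stood closer to the shLMO2-1 libraries than to the other controls. TNC was 2.29-fold lower in shLMO2-2 (log2 −1.19, SE 0.13, adjusted p = 0.00174), from 0.57 over control in shLMO2-1 (adjusted p = 0.0256) and −0.62 in shLMO2-2 (adjusted p = 0.0181).

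MMP7, the secreted protease matrilysin, whose promoter is printed above, was at 106, 115 and 108 CPM in control, 128, 140 and 130 CPM with shLMO2-1, and 73.0, 65.4 and 71.3 CPM with shLMO2-2. The 3 groups did not overlap, and the difference between the hairpins was −0.93 (SE 0.07, adjusted p = 0.00013). CYYR1, a cysteine- and tyrosine-rich membrane protein, averaged 30.9 ± 2.34, 42.5 ± 1.97 and 21.6 ± 0.263 CPM in control, shLMO2-1 and shLMO2-2 (SD, n = 3) and differed by −0.97 (SE 0.08, adjusted p = 0.000238).

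TCF3, which encodes the helix-loop-helix E proteins that partner LMO2 complexes, was at 196, 200 and 207 CPM in control, 225, 240 and 230 CPM with shLMO2-1, and 163, 167 and 159 CPM with shLMO2-2. Its difference was −0.51 (SE 0.06, adjusted p = 0.00154), and it was the only one of 11 measured genes of the LMO2 complex list called between the hairpins. TMED10, a p24 cargo receptor of vesicles between endoplasmic reticulum and Golgi, went the other way. It was at 243, 251 and 248 CPM in control, 198, 209 and 212 CPM with shLMO2-1, and 299, 296 and 335 CPM with shLMO2-2 (difference 0.59, SE 0.06, adjusted p = 0.00138). Of 23 measured genes of that transport list TMED10 alone was called.

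The difference between the hairpins kept its call in all alternatives for these 5 genes, whereas the smaller departures from control did not. Against control in shLMO2-1, calls were lost for TNC, MMP7, TCF3 and TMED10 when single libraries were left out, among them each of the 3 shLMO2-1 libraries. TMED10 also lost it with GC and length trends removed. TCF3 lost it in 14 of 19 alternatives, namely without any 1 of the 9 libraries, with upper-quartile scaling, total counts or no filter on low counts, after thinning and with those trends removed, so its place above control in shLMO2-1 is the weakest of the 5. For the 4 genes in that order, adjusted p in shLMO2-1 ran up to 0.0963, 0.129, 0.243 and 0.146 (lowest 9.04e-07, 0.00497, 0.00669 and 0.00257). TNC also lost its call against control in shLMO2-2 without shLMO2-2 replicate 2 or 3 (adjusted p from 1.25e-07 to 0.0719).

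A set of genes of low abundance was 2-fold or more lower in shLMO2-2, and they are named after their values were seen, since all but 2 fall outside the naming rule. PCDH19, a protocadherin on the X chromosome, had 253, 166 and 188 counts in control, 80, 63 and 56 in shLMO2-1, and 4, 10 and 11 in shLMO2-2. The 3 groups formed descending steps without overlap, and PCDH19 fell in both hairpins (−1.47, adjusted p = 0.00608, and −4.85, adjusted p = 2.43e-05) and fell further in shLMO2-2 (−3.38, SE 0.35, adjusted p = 0.00117). The scaled counts of shLMO2-1 over shLMO2-2 gave a ratio of 10.6 (95% exact interval 6.99 to 16.8, for counting error only).

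The same order, highest in control and lowest in shLMO2-2, held for the summed counts of RNF128, a membrane-bound ubiquitin ligase, of KIF26B, an atypical kinesin, and of TMEM64, a transmembrane protein. RNF128 had 124 counts in the 3 controls together, 39 in shLMO2-1 and 5 in shLMO2-2, a ratio of 10.4 between the hairpins (4.1 to 33.9). KIF26B had 228, 89 and 27 counts (ratio 4.40, 2.83 to 7.05) and TMEM64 had 256, 88 and 31 (ratio 3.79, 2.49 to 5.91). All 3 were called against control in both hairpins and called again between them, with adjusted p-values of 0.0115, 0.0202 and 0.0127. Their calls against control in shLMO2-1 were weaker, and those of RNF128 and KIF26B were lost without single libraries, shLMO2-1 replicates 2 and 3 among them (up to 0.089 and 0.104, from 0.00872 and 0.00512).

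SOSTDC1, a secreted antagonist of BMP and WNT signals, had 19, 24 and 22 counts in control, 16, 13 and 15 in shLMO2-1 and 2, 0 and 1 in shLMO2-2. Its shLMO2-1 libraries were close to control and its shLMO2-2 libraries near 0, with a ratio of 19.6 (6.28 to 98.6, adjusted p = 0.00791). MYEF2, an RNA-binding repressor, had 107, 45 and 7 counts per group (ratio 8.59, 3.84 to 22.6, adjusted p = 0.0396). AD000671.2 had 71, 99 and 27 counts, but shares 96.4% of its 31-base words with other genes, mainly IGFLR1, so its counts are uncertain. ADAMTS1, a secreted metalloproteinase, had 33, 68 and 15 counts, and DENND2A, a regulator of Rab GTPases, had 156, 261 and 155.

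At these counts a call rests on few libraries. PCDH19 kept its call in all alternatives. RNF128, KIF26B, TMEM64, MYEF2, AD000671.2, ADAMTS1 and DENND2A each lost it without shLMO2-1 replicate 2 and without shLMO2-2 replicates 2 or 3 among others, with adjusted p reaching 0.0728, 0.102, 0.0816, 0.162, 0.14, 0.165 and 0.142 (lowest 0.000214, 4.95e-05, 0.000175, 0.000407, 0.000213, 0.00184 and 0.000933). After thinning to equal depth, KIF26B, TMEM64 and ADAMTS1 lost their call as well. KIF26B also lost it with limma-voom, and MYEF2 with only the hairpin groups fitted. SOSTDC1 lost its call only without shLMO2-2 replicate 3 (adjusted p from 5.75e-05 to 0.0523).

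Gene lists were then read for members whose 3 libraries of a hairpin all lay on the same side of the other, against 8.97% of all genes above and 9.12% below in shLMO2-2. YAP-TEAD targets had 28 measured members, of which 14 lay below in shLMO2-2 and 0 above, with a median difference of −0.19 against 0.00 for all genes. CTGF, NT5E and THBS1 were called lower and no member was called higher. CTGF, a secreted matricellular protein also called CCN2 whose promoter is printed above, was at 35.0, 28.3 and 27.2 CPM in control, 12.9, 14.2 and 13.5 CPM with shLMO2-1, and 7.91, 8.49 and 8.58 CPM with shLMO2-2. It fell in both hairpins and fell further in shLMO2-2 (−0.70, SE 0.12, adjusted p = 0.0247). NT5E, the surface enzyme CD73, went the other way against control, with 171 ± 8.68, 270 ± 20.2 and 208 ± 9.61 CPM in control, shLMO2-1 and shLMO2-2 (difference −0.37, SE 0.07, adjusted p = 0.0396). Members that did not pass included CRIM1 (−0.31, adjusted p = 0.0937), AMOTL2 (−0.22, 0.183) and ANKRD1 (−0.40, 0.372). CTGF lost its call without any 1 of the 6 hairpin libraries (adjusted p from 0.000251 to 0.142 over the alternatives), and NT5E without shLMO2-1 replicate 2 or 3, any shLMO2-2 library or control replicate 2 or 3 (0.000337 to 0.235).

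ERK feedback and output genes had 20 measured members, 9 below in shLMO2-2 and 0 above, and a median of −0.24. Against control, 7 of the 20 were called in shLMO2-1 and 1 in shLMO2-2, beside 8.42% and 8.97% of all genes. Between the hairpins none was called by edgeR or limma-voom (0.836% of all genes with voom). Before adjustment 7 of the 20 were under 0.05, beside 10.6% of all genes, and DESeq2 called 2, beside 2.11% of all genes. ETV5, an ETS factor induced by ERK, was at 13.9 ± 1.25 CPM with shLMO2-1 and 8.67 ± 0.393 CPM with shLMO2-2 (SD, n = 3; −0.68, adjusted p = 0.0564), and the phosphatase DUSP6 at 10.9 ± 0.534 and 7.83 ± 0.698 CPM (−0.47, adjusted p = 0.158). Of the 22 NF-kB and chemokine genes 6 lay below and 1 above, with a median of −0.27. There edgeR and voom called 0, 7 were under 0.05 before adjustment and DESeq2 called 2, to be read against the same shares over all genes.

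The called genes of the next lists, of the matrix and its proteases, were all lower in shLMO2-2. The matricellular list (14 measured, 2 above and 4 below in shLMO2-2, median −0.26) had CTGF, THBS1 and TNC called lower. Of 21 collagens and proteoglycans, 6 lay below and 0 above, and COL5A2 and COL12A1 were called. COL12A1, a collagen associated with fibrils, was at 29.3, 21.3 and 23.8 CPM in control, 66.3, 80.2 and 53.6 CPM with shLMO2-1, and 38.1, 42.8 and 37.3 CPM with shLMO2-2 (difference −0.76, SE 0.15, adjusted p = 0.041). COL5A2 had means of 13.4 ± 1.34, 21.9 ± 1.84 and 14.1 ± 1.08 CPM (difference −0.63, adjusted p = 0.0298). Both collagens lost their call without most single hairpin libraries, COL5A2 without any of the 6 and COL12A1 without any but shLMO2-1 replicate 3, as well as without control replicate 3, with total counts and after thinning (adjusted p up to 0.145 and 0.225, from 0.000213 and 3.3e-08). The call of COL12A1 against control in shLMO2-2 was lost in 5 of 19 alternatives, among them without any 1 shLMO2-2 library (adjusted p up to 0.0932).

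Of 14 metalloproteinases and their inhibitors 6 lay below and 0 above, with MMP7, TIMP3 and ADAMTS1 called. TIMP3, a matrix-bound inhibitor of these proteases, was at 15.8 ± 2.06 CPM in control, 28.5 ± 3.02 CPM with shLMO2-1 and 16.4 ± 1.52 CPM with shLMO2-2 (SD, n = 3; difference −0.80, SE 0.12, adjusted p = 0.012), and lost its call without shLMO2-1 replicate 2 or shLMO2-2 replicate 1 or 2 (2.24e-06 to 0.0662). A growth factor and a nuclear regulator were also called lower, PDGFC, of the PDGF family, in the list of 20 angiogenic factors (8 below, 2 above) and ID4, an inhibitor of helix-loop-helix factors, in the list of 37 TGF-beta family genes. PDGFC had means of 42.5 ± 3.50, 74.7 ± 2.89 and 56.6 ± 2.59 CPM in control, shLMO2-1 and shLMO2-2 (difference −0.40, SE 0.08, adjusted p = 0.0392) and lost its call without any 1 of the 6 hairpin libraries or control replicate 3, as well as with upper-quartile scaling and with GC and length trends removed (0.000469 to 0.189). ID4 had 232 ± 6.48, 287 ± 22.8 and 204 ± 10.9 CPM and kept its call in all alternatives (difference −0.49, SE 0.07, adjusted p = 0.00752).

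Keratins lay on the opposite side, with 6 of 18 above in shLMO2-2 and 1 below and a median of 0.23. KRT4, KRT5 and KRT10, structural keratins of stratified epithelia, were called higher. KRT5, the keratin of the basal layer, was at 3210, 3160 and 3240 CPM in control, 2480, 2590 and 2870 CPM with shLMO2-1, and 3130, 3360 and 3640 CPM with shLMO2-2 (difference 0.35, SE 0.06, adjusted p = 0.0362). KRT4 had means of 69.6 ± 3.37, 66.9 ± 6.27 and 96.5 ± 3.33 CPM (0.53, adjusted p = 0.00877) and KRT10 of 26.7 ± 2.49, 28.7 ± 3.87 and 43.5 ± 2.22 CPM (0.60, adjusted p = 0.0332). So KRT5 stood low in shLMO2-1, while KRT4 and KRT10 stood high in shLMO2-2. All 3 lost their call without shLMO2-1 replicate 1 or 2 or shLMO2-2 replicate 2 or 3, KRT10 also without shLMO2-2 replicate 1 and KRT5 also without control replicate 3, with adjusted p reaching 0.0745 for KRT4, 0.163 for KRT10 and 0.189 for KRT5 (lowest 3.84e-07, 6.44e-05 and 3.87e-05).

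S100 calcium-binding proteins had 7 of 14 members above in shLMO2-2 and 1 below (median 0.23). None was called by edgeR, 7 were under 0.05 before adjustment, voom called 1 and DESeq2 called 3. S100A8, a subunit of calprotectin, was at 23.8 ± 3.61 CPM with shLMO2-1 and 40.7 ± 2.58 CPM with shLMO2-2 (0.78, adjusted p = 0.0641). MHC class I genes had 7 of 17 above and 0 below (median 0.13), none called by edgeR or voom, 5 under 0.05 before adjustment and 1 called by DESeq2. NRF2 targets had 8 of 23 above and 1 below (median 0.06), none called by edgeR or voom, 7 under 0.05 before adjustment and 1 called by DESeq2. ALDH1A1, an aldehyde dehydrogenase used as a stem cell marker, was called higher among 15 surface and stem markers, where NT5E, described with the YAP-TEAD targets, was called lower. ALDH1A1 was at 89.4, 96.4 and 95.4 CPM in control, 45.5, 45.3 and 46.7 CPM with shLMO2-1, and 62.1, 63.6 and 69.9 CPM with shLMO2-2, so it fell in both hairpins and further in shLMO2-1 (difference 0.51, SE 0.07, adjusted p = 0.00519).

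The lists of hairpin processing, replication and G1-S, mitosis and G2-M, and type I interferon had no member called by edgeR. The 14 genes of hairpin processing, which cut and load small RNAs, had 0 members without overlap, 0 called by edgeR, voom or DESeq2 and 0 under 0.05 before adjustment. The 38 genes of replication and G1-S had a median of −0.01 and the 38 of mitosis and G2-M a median of 0.02. Members without overlap were 6 above and 6 below in shLMO2-2 for G1-S (beside 8.97% and 9.12% over all genes), and 5 above and 2 below for G2-M. In both lists 0 were called by edgeR, voom or DESeq2, and 4 and 2 were under 0.05 before adjustment. Type I interferon genes (38 measured, median 0.02, 4 above and 3 below) had 0 called by edgeR, 3 under 0.05 before adjustment, and 1 each by voom and DESeq2. Members of a list were measured in the same libraries, so these counts describe the lists and are not a test of them.

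**Figure D4:**
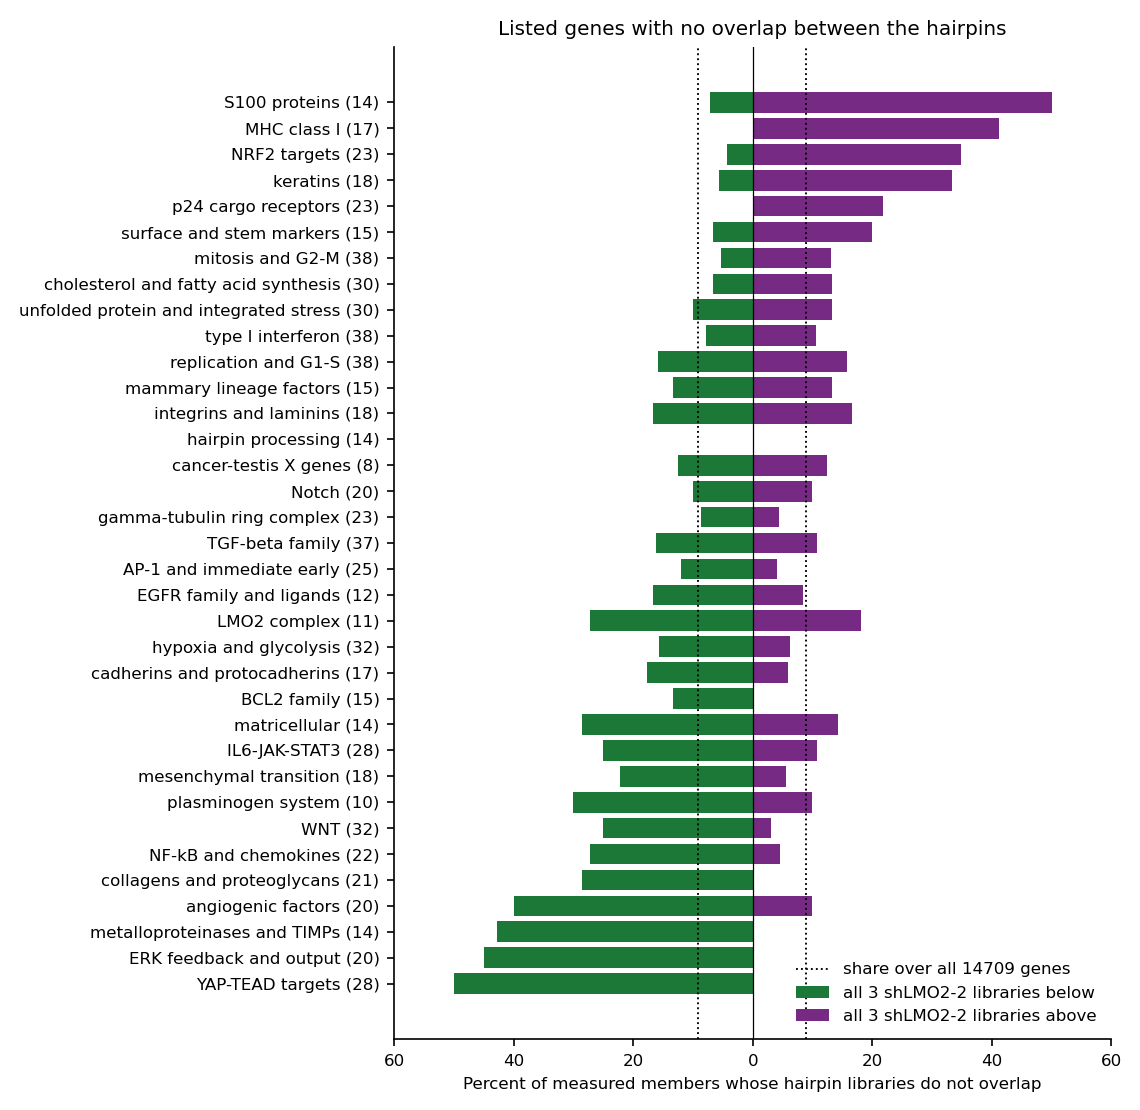
For each gene list (number of measured members in brackets), the bars give the percent of members whose 3 shLMO2-2 libraries all lay above (right) or all below (left) the 3 shLMO2-1 libraries, and dotted lines mark the shares over all 14709 genes, 8.97% above and 9.12% below. S100 proteins and MHC class I genes extend furthest to the right and YAP-TEAD targets, with 14 of 28, furthest to the left.

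The largest difference of all genes over 5 CPM was that of SMIM11A, a small integral membrane protein on chromosome 21 (34375480 to 34407866, plus strand), and it is uncertain because SMIM11A has a near-identical copy, SMIM11B. Whether reads were divided differently or the copy in use changed was not tested. SMIM11A was at 29.6, 38.8 and 38.3 CPM in control, 10.2, 7.91 and 8.77 CPM with shLMO2-1, and 37.3, 21.5 and 40.7 CPM with shLMO2-2 (log2 difference 1.89, SE 0.22, adjusted p = 0.00237). SMIM11B, annotated elsewhere on chromosome 21 (7744962 to 7777853, plus strand), was at 6.90, 0.820 and 0.211 CPM in control, 23.1, 22.5 and 25.8 CPM with shLMO2-1, and 0.087, 18.9 and 0.314 CPM with shLMO2-2. SMIM11B was not called (−1.90, SE 1.12, adjusted p = 0.638), except without the filter on low counts (2.47e-05; highest over the alternatives 0.918). Its difference moved to −6.86 without shLMO2-2 replicate 2 and −1.32 without shLMO2-2 replicate 1. The libraries low in SMIM11A were those high in SMIM11B, shLMO2-2 replicate 2 among them. The annotated coding sequence, 174 bases, is the same in both genes, with 0 differences, and it is printed to show that no coding read can tell them apart.
SMIM11A and SMIM11B, coding sequence, GENCODE 29: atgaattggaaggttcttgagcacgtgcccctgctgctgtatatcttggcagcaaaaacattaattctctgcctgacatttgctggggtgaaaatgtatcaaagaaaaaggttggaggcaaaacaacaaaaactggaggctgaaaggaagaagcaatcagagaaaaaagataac
Of the 31-base words in the transcripts of SMIM11A, 93.2% also occur in those of SMIM11B. The sum of both genes was 38.2 ± 1.6 CPM in control, 32.8 ± 2.15 CPM with shLMO2-1 and 39.6 ± 1.96 CPM with shLMO2-2 (SD, n = 3), a log2 difference of 0.27 between the hairpins.

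**Figure D5:**
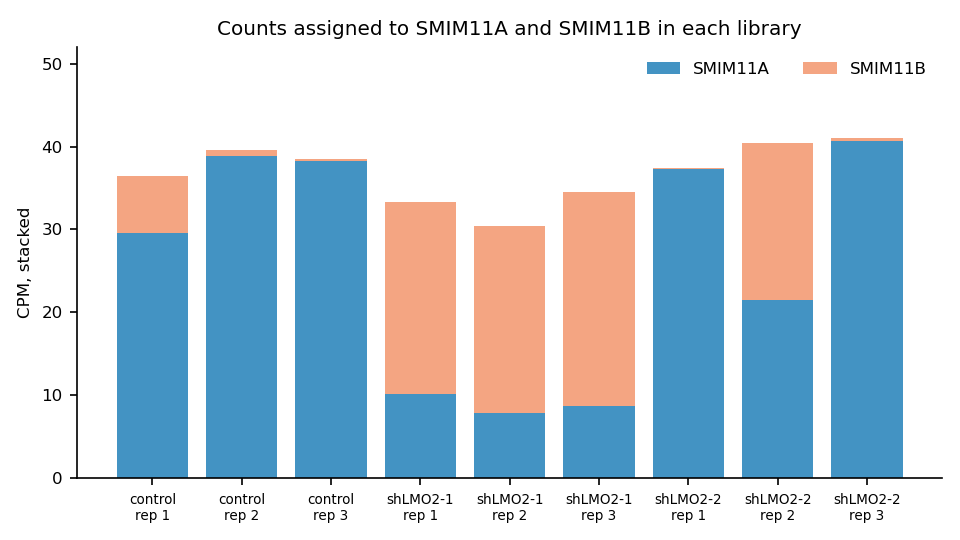
Stacked bars give the CPM assigned to SMIM11A (lower) and SMIM11B (upper) in each of the 9 libraries. The share of SMIM11B varies from nearly none to most of the bar, while the height of the whole bar stays between 30.4 and 41.1 CPM.

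A second pair behaved differently. ANXA8 and ANXA8L1, annexins whose coding sequences of 981 bases differ at 5 positions (99.5% identity), were each called higher in shLMO2-2 by 0.31 (adjusted p = 0.02 and 0.0333). Their sum was 399 ± 2.74 CPM in control, 328 ± 7.29 CPM with shLMO2-1 and 407 ± 9.84 CPM with shLMO2-2, also 0.31 apart, so the pair moved together. Each lost its call without any 1 of the 6 hairpin libraries, and ANXA8L1 also without control replicate 3 and once GC and length trends were removed (adjusted p up to 0.134 and 0.195, from 3.11e-07 and 4.28e-05). Of the 113 called genes, 16 share over 10% of their 31-base words with another gene and 5 share over 50%.

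The 113 genes were spread over the genome. Chromosome 21 had 5 of 180 tested genes called (2.78%), chromosome 11 had 12 of 836 (1.44%), chromosome 6 had 11 of 775 (1.42%) and chromosome 18 had 0 of 216, beside 0.768% over all. The 5 called genes of chromosome 21 include SMIM11A, whose read assignment is uncertain, and ADAMTS1, which has few counts. Median differences per chromosome stayed between −0.041 and 0.035, so no chromosome shifted as a whole. Of the called genes 112 are protein coding, as are 12836 of the 14709 tested genes. The genes higher in shLMO2-2 had a median transcript length of 2960 bases and those lower of 4386 bases, against 3409 bases over all tested genes, and the median GC content was 47.1%, 47.8% and 48.6%. With trends in GC content and length removed from each library, 179 genes were called, 109 of the 113 among them.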

How the data were processed

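RNA was sequenced in 9 libraries of MDA-MB-468 cells, 3 in each of 3 groups, and grouped by the plasmid in their labels. The deposited table holds estimated counts for 56809 genes by symbol, and the authors' steps named in the submitters' processing notes are Salmon 0.12, DESeq2 1.22.2 and GRCh38.p12, with no role given for each. Estimated counts can be divided between near-identical or overlapping genes, and the use of strand is not given in the sources used here.

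Estimated counts were rounded to whole numbers and tested with edgeR 4.0.16 (R 4.3.3): TMM scaling, filterByExpr (minimum count 10, minimum total 15, LMO2 added back), a quasi-likelihood fit of all 9 libraries by group, and Benjamini-Hochberg adjustment over 14709 genes holding 99.91% of the counts. Every adjusted p of a gene comes from this test unless another tool is named. The script was tested on simulated data. Each CPM uses the TMM-scaled total, except in the LMO2 permutation test, which used the plain library total. Errors are SDs over 3 libraries, and count intervals are exact at 95%. No library was counted as a repeat of another: chi-square per gene between libraries of a group was 4.786 to 25.21, where counting noise gives about 1.

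LMO2 was named, with the 12 higher and 12 lower genes of largest difference among called genes of at least 5 CPM without overlap, genes called on opposite sides of control, up to 4 called members of each list with the smallest p, and near-identical copies. The members and lists were chosen with earlier results of these data known. Coordinates, transcripts and coding sequences are from GENCODE 29 (GRCh38), promoters from RefSeq (GRCh38.p14). Alternatives were other scalings, filters and thresholds, limma-voom (limma 3.58.1), DESeq2 1.42.0, only the hairpin groups, a replicate block and each library left out. Thinning to the smallest total and removal of GC and length trends were chosen after seeing the data.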

Additional observations from a re-analysis of the deposited data

Results flagged for a closer look

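Of the 113 genes called between shLMO2-2 and shLMO2-1, 5 were called on opposite sides of the empty vector. All calls used edgeR's quasi-likelihood test with Benjamini-Hochberg adjustment, and passing the direct test was a condition for this set. Calls against control in shLMO2-1 were lost under some alternatives for TNC, MMP7, TCF3 and TMED10, for TCF3 in 14 of 19. TNC also lost its call against control in shLMO2-2 under some. The log2 differences between the hairpins were −1.19 for TNC, −0.97 for CYYR1, −0.93 for MMP7, −0.51 for TCF3 and 0.59 for TMED10. Each had all 3 shLMO2-2 libraries on 1 side of all 3 shLMO2-1 libraries, as did all 113 called genes. Groups of 3 libraries were too small for a check of single outlying libraries.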

How the results depend on the processing

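Each of the 113 genes kept its sign under every alternative in which it was tested. All 113 had hairpin libraries without overlap, so a change of sign was hardly possible. Called genes (higher and lower in shLMO2-2) numbered 378 (182 and 196) without a filter on low counts, 310 (142 and 168) with DESeq2, 189 (82 and 107) with only the 2 hairpin groups fitted, 179 (85 and 94) with GC and length trends removed, 46 (22 and 24) at an adjusted p under 0.01 and 17 (3 and 14) with a 2-fold change required. They stayed within 1.5 times the reported count with median-of-ratios scaling (112), upper-quartile scaling (108), total counts (118), a minimum of 10 counts in each library (108), voom (123) and thinning (106). With a replicate block, 257 were called (115 and 142), all 113 among them, with 101 genes departing in shLMO2-1 only and 78 in shLMO2-2 only. The block also called 4 NF-kB and chemokine genes, 3 S100 genes, 2 ERK feedback genes, 2 NRF2 targets, 1 MHC class I gene and 1 type I interferon gene. Deviations of same-numbered hairpin libraries correlated at 0.25, 0.052 and 0.2, and each library correlated best with its own number. The first and second principal components also ran with replicate number in both hairpins. These are hints from the data and not from the design, so pairing was not used. Genes called against control in shLMO2-1 only numbered 123 without the filter and 98 with DESeq2, and those in shLMO2-2 only 119, 86 and, with GC and length trends removed, 48. Leaving out 1 library gave 38 to 239 called genes, 16 to 102 higher and 22 to 137 lower, 18 to 99 departing in shLMO2-1 only and 12 to 49 in shLMO2-2 only. LMO2 ran from −1 to 0.45, reversed at 0.45 without shLMO2-1 replicate 3. Of 49 named genes called between the hairpins, 26 kept their call under all 20 alternatives that could be run and 23 lost it under at least 1. Where it was not named beside a result, the cause was not tested. Depth limits genes of a few counts, LMO2 first.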
